A study of Mus musculus with 120 samples.

Results

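The 8 genes described here make or break down cyclic AMP in thalamic projection neurons of the mouse: the adenylyl cyclases Adcy1, Adcy8, Adcy2, Adcy5 and Adcy9 and the phosphodiesterases Pde3a, Pde4d and Pde10a. They were chosen by symbol, are 8 of the 16538 genes in the deposited count table, and all 8 passed the filter on low counts. Another 14 genes of the table encode adenylyl cyclases or cyclic nucleotide phosphodiesterases and serve as context. The study sequenced RNA of small pools of neurons, sorted by hand from microdissected thalamus after a tracer had been injected into a target of their axons. The table holds 120 libraries in 24 groups of library titles, which cover 22 nuclei. Nuclei are given by the abbreviations of the labels, such as PVT (paraventricular), LGd (dorsal lateral geniculate), VB (ventrobasal), AD (anterodorsal) and AV (anteroventral).

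The striatum-labelled nuclei were traced with retrograde AAV injected into the striatum: PVT with 3 libraries and IMD, PCN, CM, CL, PF and SPA with 4 each. Another 3 CM libraries came from DiI in the striatum. All cortex-labelled nuclei were traced with DiI. Motor cortex M1 labelled VA, VM and VL with 8, 6 and 6 libraries, and in these animals a virus also labelled axons from the SNr and DCN. Cingulate cortex labelled RE, AM and IAD with 8, 4 and 3 libraries, and 1 further AM library came from AAV. Retrosplenial cortex labelled AD, LD and AV with 4, 5 and 8 libraries. Visual cortex V1 labelled LP and LGd with 9 and 5 libraries, from animals whose eyes were also injected with the tracer CTB. Barrel cortex labelled PO and VB with 7 and 4 libraries, insular cortex labelled VPMpc with 6, and orbital cortex labelled MD with 6. By the deposited sample sheet 119 libraries were wildtype, while VA library 6 had another genotype. Ages are listed there without a unit, as 55 to 182 in 110 libraries and 441 to 447 in 7 (VPMpc 1 and 2, AV 6 to 8, and LD 4 and 5), and not for 3 libraries. The sheet lists 85 animals, and 13 libraries were pooled from more than 1 of them. A labelled pool represents the neurons of a nucleus that project to the injected target, not the whole nucleus.

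Adenylyl cyclases turn ATP into cyclic AMP, which activates protein kinase A, opens HCN and cyclic nucleotide-gated channels and binds exchange factors, and phosphodiesterases end the signal by hydrolysis. The cyclases differ in what controls them: Adcy1 and Adcy8 are stimulated by calcium and calmodulin, Adcy2 is activated by G protein beta-gamma subunits when the stimulatory alpha subunit is present, Adcy5 is inhibited by calcium and by Gi, and Adcy9 is a widely expressed form with low sensitivity to forskolin. Among the phosphodiesterases, Pde3a is inhibited by cyclic GMP, Pde4d is specific for cyclic AMP, and Pde10a hydrolyses both cyclic nucleotides and is best known from striatal medium spiny neurons. In thalamic relay neurons cyclic AMP shifts the voltage range of the HCN current and so bears on the change between burst and tonic firing.

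RefSeq promoter entries on GRCm38.p6 were found for 6 of the 8 members, with 7 start sites, and not for Adcy8 or Pde3a. The 250 bases before each start were searched on both strands for the cyclic AMP response element TGACGTCA, its shorter core TGACG, which the full element contains, and the E-box CACGTG. The full element was in 0 of the 7 member sequences, and it was in 1.55% of the 32851 promoter entries. The core was in 1, that of Adcy9, against 17.8% of all entries. The E-box was in 1, that of Adcy1, against 6.02% of all entries. The pair of sequences below is shown because Adcy1 and Adcy9 both had lower levels in striatum-labelled nuclei and are the members with a match, given in capitals. The Adcy1 sequence is chr11:7063183-7063432 on the plus strand and the Adcy9 sequence chr16:4420499-4420748 on the minus strand, each read 5′ to 3′ along its gene.
Adcy1: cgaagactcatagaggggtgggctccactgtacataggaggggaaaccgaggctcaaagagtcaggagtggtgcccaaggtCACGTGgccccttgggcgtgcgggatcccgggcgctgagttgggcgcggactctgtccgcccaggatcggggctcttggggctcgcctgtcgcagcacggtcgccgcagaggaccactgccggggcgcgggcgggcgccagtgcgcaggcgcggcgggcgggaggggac
Adcy9: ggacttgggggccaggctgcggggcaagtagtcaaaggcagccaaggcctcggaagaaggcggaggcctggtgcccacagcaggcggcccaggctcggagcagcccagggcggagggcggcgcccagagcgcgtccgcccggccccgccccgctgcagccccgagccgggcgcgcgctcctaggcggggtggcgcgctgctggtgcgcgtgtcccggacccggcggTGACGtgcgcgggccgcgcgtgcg
A match describes these letters only, and no binding was measured.

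Total counts per library lay between 8159497 and 26444831, with a median of 15571299.5, from 14 to 200 sorted cells with a median of 60.5. The member with the fewest reads had 26656 over all libraries, so error from counting reads bears mainly on values near 0. How many RNA molecules were captured from each pool was not measured and can limit any value. Levels are CPM, read counts set relative to the library total, on TMM-scaled library sizes. The relay neuron markers Slc17a6 and Tcf7l2 summed to between 2328 and 4470 CPM in striatum-labelled libraries and between 1779 and 7256 CPM in cortex-labelled libraries. The oligodendrocyte markers, 8 of 9 in the table, summed to between 10.97 and 59.9998 CPM in striatum-labelled libraries and between 0.257 and 3892 CPM in cortex-labelled libraries. Of the GABAergic markers only Sst and Npy were analysed here, with highest sums of 13.1 and 28.6 CPM in striatum- and cortex-labelled libraries, so such neurons were checked by these 2 genes alone. The astrocyte marker S100b reached at most 4.65 and 16.0 CPM and the microglial marker Csf1r at most 4.21 and 47.9 CPM in the same classes. Markers of cortical excitatory and of vascular cells were not analysed here. In such pools a lower level can mean fewer cells that express a gene or less of its RNA per cell, and these cannot be told apart. The amplification kit does not mark strand, so reads of Adcy8, Adcy2, Adcy5, Pde3a, Pde4d and Pde10a cannot be told apart from those of gene models annotated opposite to them (for Adcy8 Gm21798, for Pde3a Gm28523). Each group has as many animals or pools of animals as libraries, so p-values of tests on libraries measure the spread between animals together with that of sorting and amplification. The test of striatum-labelled against cortex-labelled nuclei used counts summed per nucleus, so its p-values measure the spread between nuclei.

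Per kilobase of merged exons the mean level over the 22 nuclei was highest for Adcy1, at 29.3 CPM per kilobase. Adcy8 had 16.8, Pde10a 12.9, Adcy5 12.1 and Pde4d 8.80 CPM per kilobase. Adcy9 had 5.17, Adcy2 5.13 and Pde3a 1.10 CPM per kilobase. Adcy1 leads by this measure, but the place of Adcy8 rests on the single libraries described below: without 4 of them it had 11.6 CPM per kilobase, under Pde10a and Adcy5. Equal means over the 22 nuclei were tested with edgeR's quasi-likelihood F test, adjusted by Benjamini-Hochberg over 16527 genes at a threshold of 0.05. It called 8 of 8 members, against 55.1% of all genes tested, so a call alone sets a member little apart here. Adcy1 ranked 137 of all genes by F (adjusted p = 1.1e-25), Pde3a 709 (adjusted p = 9.6e-14) and Adcy2 789 (adjusted p = 3.8e-13). Pde4d was at the other end, with rank 9070 and an adjusted p of 0.048 that was above the threshold in 61 of 98 fits that left out 1 library. Each nucleus was also set against the mean log2 level of the other 21, which called 41 of 176 member tests (23.3%; 31 above and 10 below), against 12% of all gene tests. These 22 contrasts share libraries and are given by member.

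**Figure D1:**
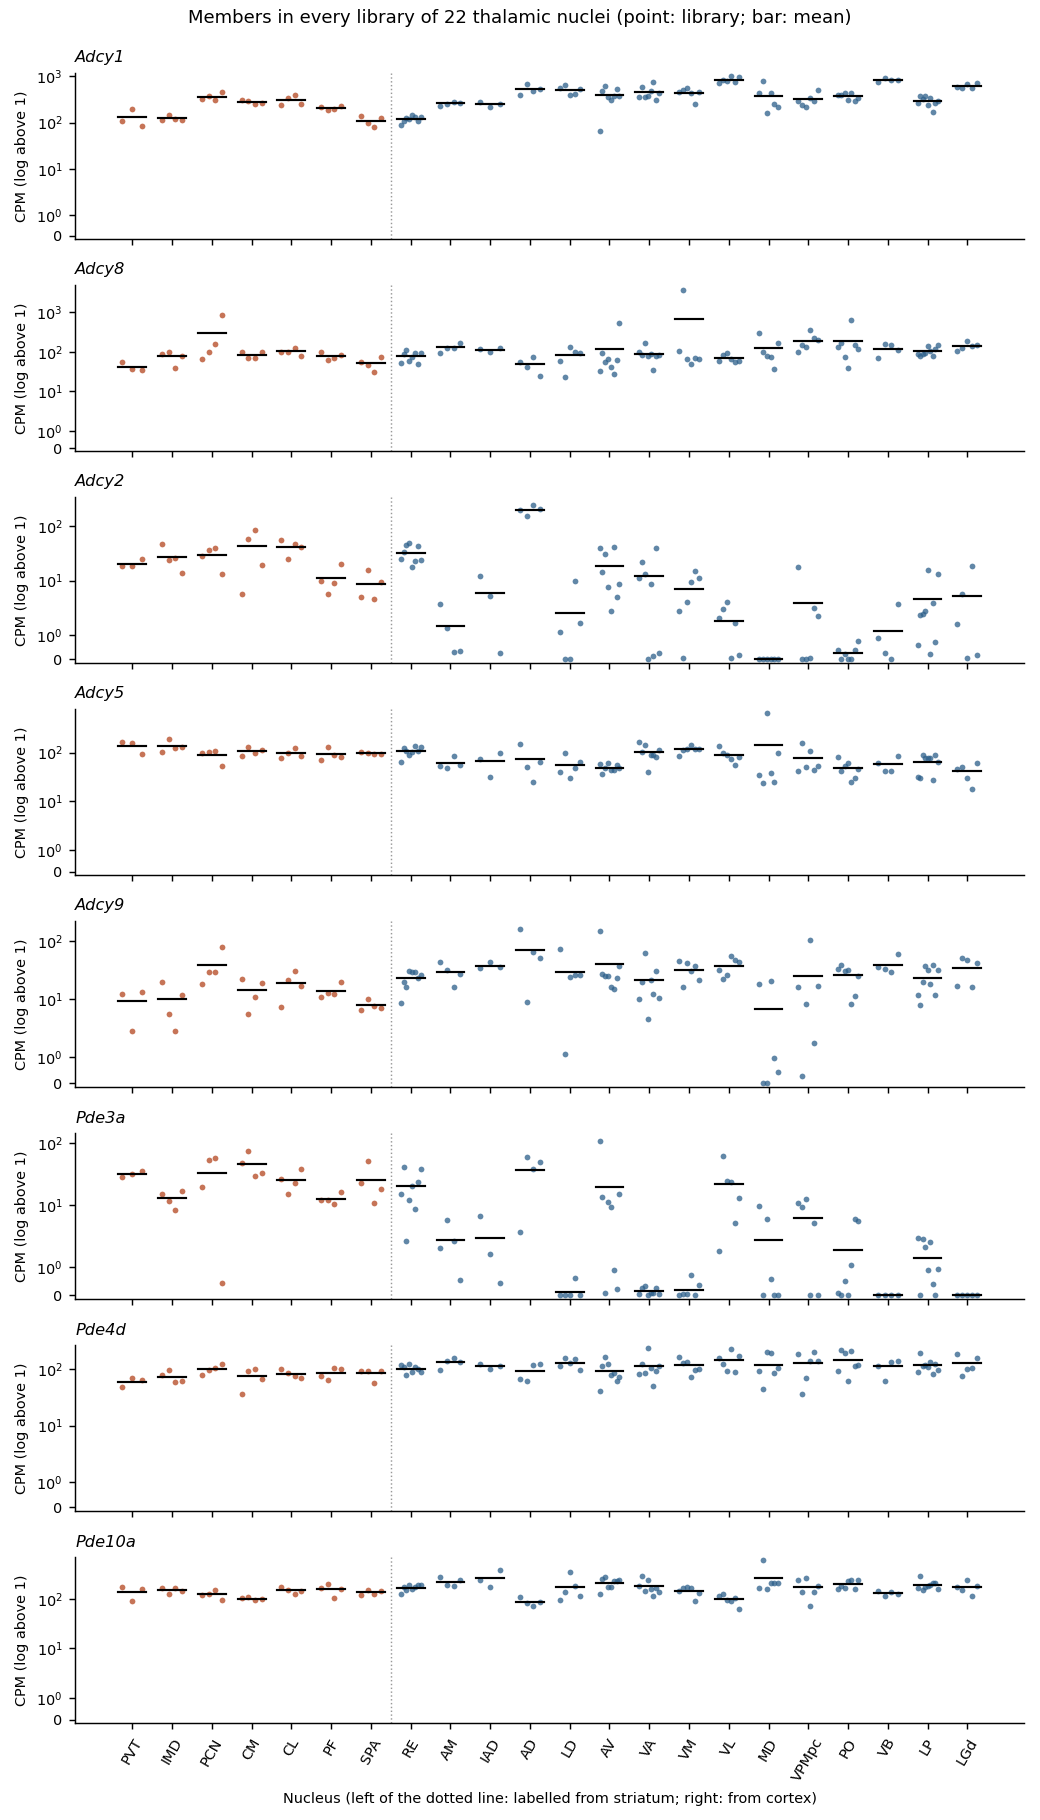
Levels of the 8 members (CPM, on an axis that is logarithmic above 1) in every library, grouped by nucleus with striatum-labelled nuclei first and then cortex-labelled nuclei; points are libraries and bars are group means. Adcy1 is highest in VL and VB and lowest in SPA, RE, IMD and PVT, Adcy2 stands out in AD and is at 0 in MD, and Pde3a is at 0 in every LGd and VB library.

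Adcy1, encoded at chr11:7063489-7178506 (GRCm38, plus strand), had its highest levels in VL, VB and LGd, with means of 838 ± 111 (SD, n = 6), 834 ± 69.4 (n = 4) and 609 ± 70.2 CPM (n = 5). The VL libraries lay between 715 and 1006 CPM with a median of 808. The 4 VB libraries had 756, 924, 836 and 818 CPM, and the 5 LGd libraries had 572, 558, 670, 546 and 698 CPM. VL and VB overlapped, and the step between VB and LGd was the 1 of 21 steps in the order of nuclei at which neighbours did not overlap. AD (518 ± 123), LD (503 ± 99.3), VA (454 ± 150), VM (439 ± 101) and AV (385 ± 165) followed. The middle of the order held MD (381 ± 230), PO (374 ± 60.4), PCN (363 ± 70.1), VPMpc (315 ± 102), CL (301 ± 70.1), LP (293 ± 68.1), CM (275 ± 26.5), AM (259 ± 21.3), IAD (248 ± 30.8) and PF (207 ± 20.97). The lowest means were in PVT (129 ± 61.1), IMD (123 ± 15.9), RE (121 ± 18.5) and SPA (109 ± 24.7), 7.69-fold below VL. The 3 PVT libraries had 105, 199 and 83.9 CPM, the 4 IMD libraries 111, 147, 120 and 116 CPM, and the 4 SPA libraries 135, 98.2, 79.8 and 122 CPM. The 8 RE libraries ran between 86.5 and 148 CPM with a median of 125. AV library 1, at 65.0 CPM, was the lowest of all 120, while its 7 companions had 306 to 621 CPM.

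Against the other 21 nuclei Adcy1 was called above in 7 nuclei and below in 4. The largest log2 differences above were in VL (1.48, SE 0.15, adjusted p = 1.7e-14), VB (1.47, SE 0.18, adjusted p = 7.2e-11) and LGd (0.99, SE 0.17, adjusted p = 2.6e-06). AD, LD, VA and VM were above by 0.75, 0.70, 0.55 and 0.50. Below were SPA (-1.61, SE 0.25, adjusted p = 1.7e-07), RE (-1.45, SE 0.17, adjusted p = 2.2e-11), IMD (-1.42, SE 0.24, adjusted p = 2.5e-06) and PVT (-1.35, SE 0.28, adjusted p = 0.000127). When single libraries of the nucleus were left out, the VM call was lost in 5 of 6 fits (adjusted p up to 0.194), the VA call without library 6, the one of another genotype (adjusted p = 0.0682), and the AD call without library 2 (adjusted p = 0.0808). The calls in VL, VB, LGd, LD, SPA, RE, IMD and PVT passed in every such fit.

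Adcy8 (chr15:64697084-64922296, minus strand) was at moderate levels in most nuclei, and a few single libraries stood far above their group. The VM mean of 682 ± 1499 CPM (n = 6) rested on library 2, at 3741 CPM, while the other 5 had 47.8 to 104 CPM. PCN library 4 had 855 CPM, against 66.5, 101 and 161 CPM in the other 3. PO library 5 had 637 CPM, against 38.9 to 165 CPM in 6 others, and AV library 8 had 541 CPM, against 27.1 to 93.4 CPM in 7 others. VM library 2 held 30 cells and the highest oligodendrocyte marker sum of its group, 486 CPM against 4.02 to 372 CPM in the others. PCN library 4 held 22 cells, and AV library 8 had 16.7 CPM of the microglial marker Csf1r, which was at 0 in the other AV libraries. The part of these in the Adcy8 levels was not tested. Among the other groups VPMpc had 192 ± 90.0 (n = 6), LGd 142 ± 30.6, AM 129 ± 30.0, MD 126 ± 96.5, VB 121 ± 40.1, IAD 113 ± 12.3 and LP 105 ± 27.1 CPM at the upper end. CL (102 ± 20.02), VA (89.2 ± 38.0, with library 3 at 171 CPM and 7 others at 35.4 to 98.7 CPM), CM (83.6 ± 17.2), LD (81.3 ± 40.7), PF (77.4 ± 15.2), RE (77.0 ± 22.7) and IMD (76.2 ± 27.1) were in the middle. VL (69.0 ± 15.3), SPA (51.4 ± 17.3), AD (49.6 ± 22.0) and PVT (41.8 ± 10.9) were at the lower end. The VPMpc libraries lay between 98.9 and 351 CPM with a median of 173. The PVT libraries had 54.2, 37.4 and 33.9 CPM, all below every VPMpc library. All 21 pairs of neighbours in the order overlapped. The F test without VM 2, PCN 4, PO 5 and AV 8 still called Adcy8 (adjusted p = 7.97e-07), whereas limma voom with the animal as a block on all libraries did not (adjusted p = 0.196). Adcy8 was called above the other 21 nuclei in VM and PCN only, and neither call held without its far library: VM then had a log2 difference of -0.49 (adjusted p = 0.68) and PCN one of 0.09 (adjusted p = 1).

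Adcy2 (chr13:68620043-68999541, minus strand) was highest in AD, whose 4 libraries had 196, 150, 242 and 201 CPM, a mean of 197 ± 37.7. No library of another nucleus exceeded 85.8 CPM, so AD overlapped with no other nucleus. Next came CM (42.2 ± 36.6), CL (41.8 ± 12.9), RE (32.6 ± 11.8), PCN (29.1 ± 11.8), IMD (27.4 ± 13.5), PVT (20.5 ± 3.67) and AV (18.7 ± 16.0). The 4 CL libraries had 54.8, 24.5, 46.9 and 41.0 CPM, and the 4 CM libraries were far apart, at 5.62, 58.0, 85.8 and 19.5 CPM. VA (11.99 ± 13.8), PF (11.03 ± 6.14), SPA (8.63 ± 5.13) and VM (7.09 ± 5.69) were lower. Below 6 CPM on average lay IAD, LGd, LP, VPMpc, LD, VL, AM and VB, at 5.91, 5.12, 4.63, 3.86, 2.53, 1.82, 1.46 and 1.22 CPM. PO had 0.251 ± 0.286 CPM (n = 7), with 3 libraries at 0. MD had no read in 6 of 6 libraries, which allows up to 0.0572 CPM, the level of 3 counts over the group; this covers counting error only. In all, 15 of 120 libraries had no read of Adcy2.

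Adcy2 was called above the other 21 nuclei in AD, CM, CL, RE, IMD, PCN and AV, and below in MD. The AD difference was 5.23 log2 units, a size that depends on the prior count because MD is at 0 (SE 0.53, adjusted p = 3.4e-14). The RE difference was 2.51 (SE 0.52, adjusted p = 8.2e-05), the CL difference 2.89 (SE 0.65, adjusted p = 0.00138) and the MD call had an adjusted p of 2.9e-06. These differences are taken from a mean of log2 levels that nuclei near 0 pull down, so AV was called above (adjusted p = 0.0188) with a mean of 18.7 CPM, under the mean of 21.7 CPM over the other 21. With single libraries left out the AD, RE, CL and MD calls held in every fit. CM lost its call without library 3 (adjusted p = 0.08), IMD without library 1 or 3 (up to 0.148), PCN without library 1, 2 or 3 (up to 0.135) and AV without library 1, 3 or 6 (up to 0.0866).

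Adcy5 (chr16:35154877-35305738, plus strand) varied 3.48-fold between the highest and the lowest nucleus mean, and the highest mean rested on 1 library. MD library 3 had 646 CPM, against 35.5, 23.8, 38.4, 24.7 and 95.9 CPM in the other 5, a mean of 144 ± 247. The same library had a relay marker sum of 7256 CPM, against 3008 to 4190 CPM in the others, which is given as a value only. IMD (137 ± 36.7), PVT (136 ± 37.9), VM (116 ± 18.8), RE (107 ± 23.6), CM (107 ± 21.3) and VA (103 ± 38.1) followed. The 4 IMD libraries had 101, 188, 126 and 133 CPM, and the 3 PVT libraries had 161, 154 and 92.4 CPM. CL (97.7 ± 20.5), SPA (97.3 ± 4.62), PF (93.3 ± 26.5), VL (90.0 ± 28.6) and PCN (90.0 ± 24.4) lay close together. VPMpc (76.3 ± 47.7), AD (73.2 ± 54.5), IAD (68.4 ± 34.4), LP (63.0 ± 26.0) and AM (60.9 ± 16.7) came next. VB (57.6 ± 20.2), LD (55.9 ± 26.7), AV (49.3 ± 8.12), PO (48.4 ± 18.6) and LGd (41.4 ± 17.1) were lowest. The 5 LGd libraries had 45.8, 51.6, 30.3, 18.2 and 61.0 CPM, all below every IMD and PVT library. Adcy5 was called above the other 21 nuclei in MD (0.85, SE 0.27, adjusted p = 0.00859), but without library 3 MD was called below (-0.87, adjusted p = 0.0134). It was called below in AV (-0.77, SE 0.27, adjusted p = 0.0346) and LGd (-1.03, SE 0.35, adjusted p = 0.0459). Leaving out 1 library ended the AV call in 5 of 8 fits (adjusted p up to 0.0739) and the LGd call in 4 of 5 (up to 0.225).

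Adcy9 (chr16:4287529-4420498, minus strand) had its highest mean in AD and its lowest in MD, and its libraries spread widely within groups. The 4 AD libraries had 161, 8.83, 64.8 and 51.0 CPM, a mean of 71.4 ± 64.4, with library 2 far below the others. AV (39.7 ± 44.7) held 1 library at 149 CPM beside 7 between 14.8 and 37.0 CPM. VB (39.4 ± 13.3), PCN (38.8 ± 26.6), IAD (37.8 ± 4.96), VL (37.5 ± 12.5), LGd (34.8 ± 16.9) and VM (32.3 ± 11.4) followed. LD (30.0 ± 26.3), AM (29.8 ± 11.6), PO (25.8 ± 11.7), VPMpc (24.7 ± 40.0), LP (23.3 ± 11.7), RE (22.8 ± 7.60) and VA (21.5 ± 18.3) were in the middle. CL (18.9 ± 9.48), CM (14.7 ± 7.83), PF (14.1 ± 4.11), IMD (10.1 ± 7.4996), PVT (9.48 ± 5.75) and SPA (7.84 ± 1.58) were low, and all 6 are striatum-labelled. The 6 MD libraries had 18.3, 0, 0, 20.3, 0.961 and 0.456 CPM, a mean of 6.67 ± 9.82. MD libraries 2 and 3, both at 0, had 8159497 and 10860603 counts and 10189 and 10409 of the 16538 genes detected. The total of library 2 was the lowest of all libraries. Library 2 also had 618 CPM of Pde10a and library 3 had 646 CPM of Adcy5, both far above their group. The part of such library differences in the MD levels was not tested. The call below the other 21 nuclei in MD (-1.86, SE 0.61, adjusted p = 0.0123) passed in each of 6 fits that left out 1 library. The call above in AD (1.71, SE 0.51, adjusted p = 0.0109) did not hold without library 1 (0.93, adjusted p = 0.511). The same AD library carried the F test of Adcy9, whose adjusted p was 0.0154 with it and 0.0539 without it.

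Pde3a (chr6:141249269-141507448, plus strand) ranged from no read to 109 CPM. The highest mean was in CM, whose 4 libraries had 47.8, 75.4, 30.1 and 32.98 CPM (46.6 ± 20.7). AD followed with 3.68, 59.98, 38.2 and 49.5 CPM. The 3 PVT libraries were close to each other, at 28.8, 31.5 and 36.5 CPM. PCN (33.3 ± 28.1), SPA (26.1 ± 18.1), CL (26.0 ± 9.81), IMD (13.2 ± 3.94) and PF (12.8 ± 2.56) complete the striatum-labelled nuclei. Of the 30 libraries with a striatal injection only PCN library 4, at 0.429 CPM, was below 8.28 CPM. Among cortex-labelled nuclei VL (22.0 ± 22.4), RE (20.4 ± 13.8) and AV (19.98 ± 36.5) came next to AD. VL ran between 1.83 and 63.7 CPM and RE between 2.69 and 42.3 CPM. AV library 1 had 109 CPM, while its companions had 0.0772 to 15.3 CPM. VPMpc had 6.33 ± 5.48 CPM, and IAD, AM, MD, PO and LP lay between 1.42 and 2.95 CPM on average. VM (0.201 ± 0.301), VA (0.133 ± 0.126) and LD (0.121 ± 0.271) were near 0, with 0 to 15 reads per VM library, 0 to 5 per VA library, and 8 reads in LD library 4 and none in the other 4. LGd had no read in 5 of 5 libraries, which allows up to 0.0486 CPM, and VB had none in 4 of 4, which allows up to 0.0612 CPM. In all, 26 of 120 libraries had no read of Pde3a.

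Pde3a was called above the other 21 nuclei in 10 nuclei and below in none. In order of adjusted p these were CM (5.3e-07), AD (2.5e-06), RE (2.3e-05), AV (3.2e-05), PCN (3.7e-05), VL (0.000103), PVT (0.000174), SPA (0.000208), CL (0.000518) and IMD (0.0311). Fitted folds are not given for these calls, since the levels of LGd and VB in the mean of the others depend on the prior count. IMD was called above with a mean of 13.2 CPM, slightly under the mean of 14.1 CPM over the others, for the same reason as Adcy2 in AV. The AV call was lost without library 1 (adjusted p = 0.118) and the IMD call without any one of its 4 libraries (adjusted p up to 0.115). The other 8 held in every fit.

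Pde4d (chr13:108449948-109953461, plus strand) was the most even member, with a 2.38-fold range of nucleus means. The highest means were in PO (142 ± 61.2), VL (142 ± 53.0) and AM (130 ± 24.5). LD (128 ± 24.9), VPMpc (127 ± 63.7), LGd (125 ± 44.8), MD (120 ± 62.2), LP (117 ± 32.8), VM (116 ± 31.7), IAD (112 ± 11.5), VB (111 ± 35.6) and VA (111 ± 56.0) lay close behind. RE had 101 ± 16.3, PCN 100 ± 17.9, AV 91.8 ± 38.6 and AD 91.7 ± 33.2 CPM. PF (85.3 ± 19.9), SPA (83.4 ± 17.8), CL (82.0 ± 12.3), CM (73.6 ± 28.5), IMD (73.2 ± 16.4) and PVT (59.7 ± 10.6) were lowest, all striatum-labelled. The 3 PVT libraries had 48.0, 68.5 and 62.7 CPM and the PO libraries ran between 61.3 and 213 CPM with a median of 116. These ranges overlap, as did all 21 pairs of neighbours. No nucleus was called for Pde4d against the other 21.

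Pde10a (chr17:8525372-8986648, plus strand) was highest in IAD (267 ± 107), MD (263 ± 176), AM (225 ± 47.5) and AV (214 ± 51.8). The 3 IAD libraries had 241, 175 and 385 CPM. MD library 2 had 618 CPM, while the other 5 had 159 to 213 CPM. The AV libraries ran between 124 and 282 CPM with a median of 232. PO (199 ± 41.6), LP (193 ± 40.5), VA (180 ± 58.5), LD (176 ± 102), VPMpc (175 ± 72.7), LGd (173 ± 45.1), RE (169 ± 22.9), PF (158 ± 40.7), IMD (151 ± 19.1) and CL (149 ± 18.5) were in the middle. VM (146 ± 32.1), PVT (140 ± 44.0), SPA (136 ± 16.6), VB (132 ± 12.6), PCN (124 ± 24.4) and CM (101 ± 6.4997) were lower. VL (98.9 ± 21.5) and AD (88.6 ± 15.1) were lowest. The 4 AD libraries had 109, 83.4, 73.6 and 88.0 CPM, below every AV library. Against the other 21 nuclei AD was below by 0.89 (SE 0.23, adjusted p = 0.00332) and VL by 0.72 log2 units (SE 0.19, adjusted p = 0.00386), and both held in every fit that left out 1 library. MD was above by 0.75 (adjusted p = 0.000106), but by 0.30 without library 2 (adjusted p = 0.199). IAD (0.78, adjusted p = 0.0307) lost its call without library 1 or 3 (adjusted p up to 1), and AV (0.44, adjusted p = 0.0221) without library 2, 3 or 8 (up to 0.0894).

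Striatum-labelled nuclei differed from cortex-labelled nuclei in 4 of 8 members, against 18.4% of all genes tested. Adcy1, Adcy9 and Pde4d were lower and Adcy5 was higher. The test took counts summed over the libraries of each nucleus, 7 nuclei against 15, with the edgeR quasi-likelihood test over 15440 genes. The median log2 fold change was -0.42 over the 8 members and -0.08 over all genes. Every AAV nucleus here is striatum-labelled and every DiI nucleus cortex-labelled, so target and tracer cannot be told apart, and sex and amplification date were also unevenly spread.

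**Figure D2:**
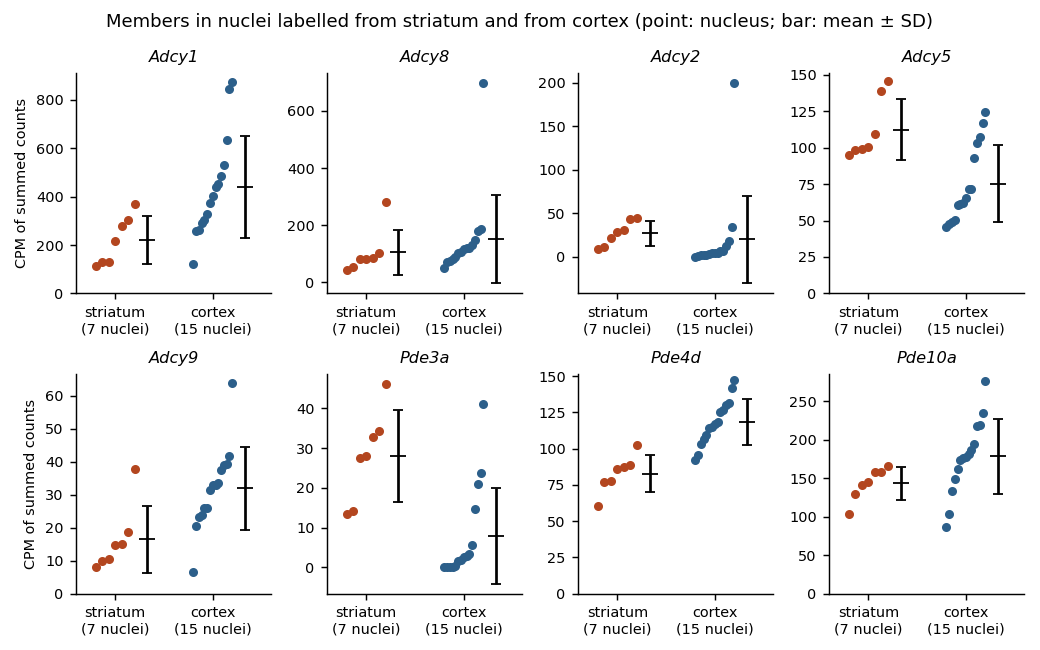
Levels of the 8 members in the 7 striatum-labelled nuclei (left in each panel) and the 15 cortex-labelled nuclei (right), in CPM of counts summed per nucleus; points are nuclei, and bars are class means ± SD. Adcy1, Adcy9 and Pde4d lie lower and Adcy5 higher in the striatum-labelled nuclei, and the ranges of the classes overlap for all 8 members.

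Pde4d had the smallest p. Its striatum-labelled nuclei ran between 60.4 and 102 CPM with a median of 85.9, and its cortex-labelled nuclei between 92.1 and 147 CPM with a median of 117. The means were 82.7 ± 12.9 CPM in the 7 striatum-labelled and 118 ± 15.9 CPM in the 15 cortex-labelled nuclei (SD over nuclei), a log2 fold change of -0.52 (SE 0.11, adjusted p = 0.00273). The classes overlap only between 92.1 and 102 CPM. This call held without each nucleus in turn (adjusted p up to 0.0106).

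Adcy1 had 220 ± 100 CPM in striatum-labelled and 440 ± 211 CPM in cortex-labelled nuclei, a log2 fold change of -0.997 (SE 0.31, adjusted p = 0.025). The striatum-labelled nuclei lay between 114 and 369 CPM with a median of 216, and the cortex-labelled nuclei between 122 and 873 CPM with a median of 404. RE, IAD, AM, LP, VPMpc and MD were the cortex-labelled nuclei within the range of the striatum-labelled ones, with RE the lowest. The call was lost without PVT (adjusted p = 0.0667), IMD (0.0662) or SPA (0.0502).

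Adcy9 had 16.4 ± 10.1 CPM in striatum-labelled and 31.9 ± 12.6 CPM in cortex-labelled nuclei, a log2 fold change of -0.96 (SE 0.31, adjusted p = 0.0349). Its striatum-labelled nuclei ran between 8.14 and 37.8 CPM and its cortex-labelled nuclei between 6.65 and 63.8 CPM, with medians of 14.7 and 32.9. PCN was the highest of the striatum-labelled and MD the lowest of the cortex-labelled nuclei. The call was lost without any one of 6 of the 7 striatum-labelled nuclei, all but PCN (adjusted p up to 0.0849), and with CM taken from its DiI libraries (-0.75, adjusted p = 0.115).

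Adcy5 had 112 ± 21.03 CPM in striatum-labelled and 75.4 ± 26.7 CPM in cortex-labelled nuclei, a log2 fold change of 0.58 (SE 0.19, adjusted p = 0.0367). The striatum-labelled nuclei lay between 94.7 and 146 CPM and the cortex-labelled nuclei between 45.3 and 124 CPM. Adcy5 is also the main cyclase of striatal medium spiny neurons. Of the markers of those cells 3 were analysed here (Drd1, Drd2 and Ppp1r1b), and they summed to 2.29 to 83.7 CPM, median 35.5, in striatum-labelled libraries and to 0 to 110 CPM, median 19.8, in cortex-labelled libraries. Of the 3, Ppp1r1b was lower in striatum-labelled nuclei, with 0.154 ± 0.259 CPM against 2.91 ± 3.97 CPM (log2 fold change -4.21, adjusted p = 0.0457). Drd1 and Drd2 are not given singly here. The part of these markers in the Adcy5 difference was not tested. The call was lost without any one of 9 nuclei (PVT, IMD, CM, AV, LP, LD, PO, LGd or VB).

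The other 4 members did not pass. Pde3a had 28.1 ± 11.6 CPM in striatum-labelled and 7.89 ± 12.04 CPM in cortex-labelled nuclei (log2 fold change 1.83, SE 0.92, adjusted p = 0.166), and AD, VL, RE and AV were the cortex-labelled nuclei within the striatum-labelled range. Adcy2 had 27.0 ± 14.3 and 19.8 ± 50.5 CPM in striatum- and cortex-labelled nuclei (0.45, adjusted p = 0.779). Adcy8 had 104 ± 80.0 and 151 ± 156 CPM (-0.54, adjusted p = 0.388), and Pde10a had 143 ± 21.4 and 178 ± 48.8 CPM (-0.32, adjusted p = 0.191). Within the 2 amplification dates that hold both classes, 8 sums of nucleus and date were compared. They were PVT, IMD and CM against the motor nuclei VM (1 sum), VA and VL (2 sums each). The other nuclei had no part, and the 2 sums of VA or VL are not independent nuclei. For Adcy1, VL had the highest of the 22 nucleus means, and PVT and IMD were among the lowest. Only Adcy1 was called (-1.73, adjusted p = 0.0152), while Pde4d had -0.63 (adjusted p = 0.157), Adcy9 -0.76 (adjusted p = 0.322) and Adcy5 0.18 (adjusted p = 0.662). A fit of all libraries, in which libraries stand in for nuclei, called 7 of 8. That fit also called more of all genes than the sums per nucleus did. The comparison within dates called fewer of all genes, and both counts are given in the last section.

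Pairs of nuclei labelled from the same cortical target differ in nucleus and not in target or tracer. Over 11 such pairs 19 of 88 member tests were called (21.6%; 7 higher and 12 lower), against 2.85% of all gene tests, and 5 members were among them: Adcy1, Pde3a, Pde10a, Adcy2 and Adcy8. Adcy5, Adcy9 and Pde4d were called in none. Pairs that share a nucleus share its libraries.

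**Figure D3:**
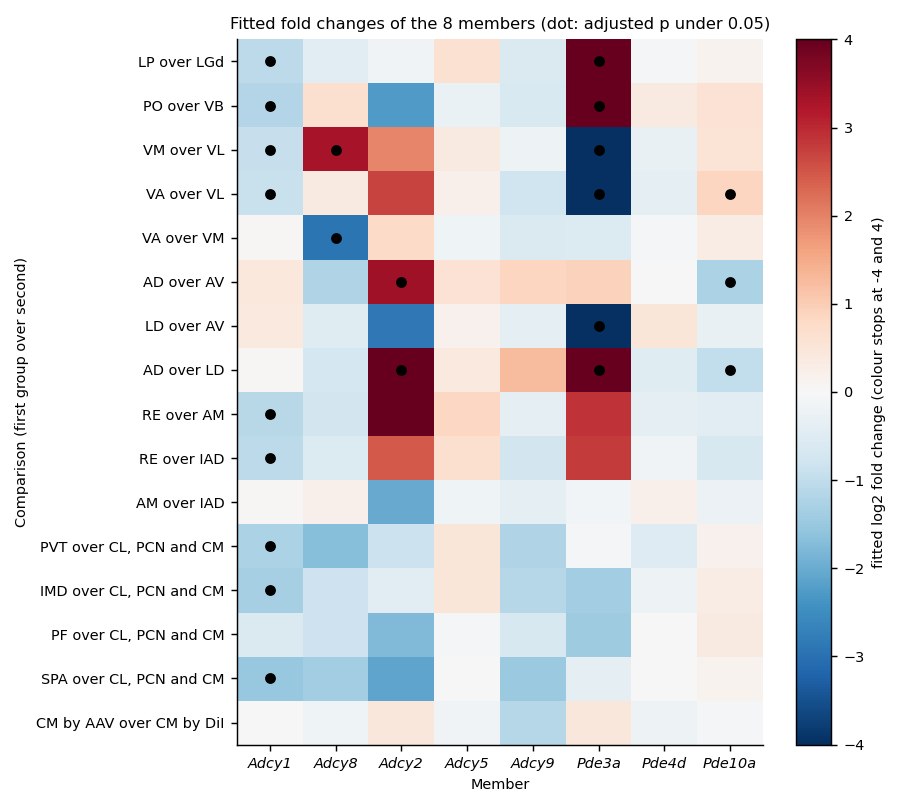
Log2 fold changes of the 8 members (columns) in the same-target pairs, the midline and caudal contrasts and the tracer comparison in CM (rows, first group over second), as a colour scale that stops at -4 and 4, with a dot where the value was called. Adcy1 was lower in LP than LGd, in PO than VB, and in VM and VA than VL, and the darkest called fields are those of Pde3a and Adcy2.

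In the visual pair 2 of 8 members were called for LP over LGd, against 3.62% of all genes. Adcy1 ran between 169 and 380 CPM with a median of 292 in the 9 LP libraries, all below the lowest of the 5 LGd libraries, 546 CPM. The log2 fold change was -1.05 (SE 0.22, adjusted p = 0.000767). Pde3a had 2.95, 0, 2.90, 2.13, 0.898, 2.61, 0.394, 0 and 0.935 CPM in the 9 LP libraries and no read in the 5 LGd libraries. Pooled over libraries it was at least 31.3-fold higher in LP than the level that 3 counts over the LGd group allow (adjusted p = 0.00745), although 2 LP libraries were also at 0. The other 6 members did not pass, and of these Adcy5 had 63.0 ± 26.0 CPM in LP and 41.4 ± 17.1 CPM in LGd (log2 fold change 0.61, adjusted p = 0.521).

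In the somatosensory pair 2 of 8 members were called for PO over VB, against 2.65% of all genes, and they were again Adcy1 and Pde3a. Adcy1 had 397, 393, 444, 308, 440, 295 and 339 CPM in PO, or a range of 295 to 444 with a median of 393, and 756 to 924 CPM in VB. The groups did not overlap (-1.16, SE 0.25, adjusted p = 0.00125). Pde3a had 0.0635, 0, 0.504, 0, 1.11, 6.04 and 5.72 CPM in the PO libraries and no read in the 4 VB libraries, at least 29.5-fold higher in PO when pooled (adjusted p = 0.0175) and at least 19.2-fold without PO library 7. This call was lost without any one VB library (adjusted p up to 0.0695) and by voom (adjusted p = 0.2). Pde10a did not overlap either, with 156 to 247 CPM in PO and 117 to 146 CPM in VB, but did not pass (0.59, SE 0.27, adjusted p = 0.27).

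In the motor thalamus 3 of 8 members were called for VM over VL, against 1.69% of all genes, 3 of 8 for VA over VL, against 2.21%, and 1 of 8 for VA over VM, against 0.127%. Adcy1 was lower in VM, with 254 to 555 CPM and a median of 452, than in VL, with 715 to 1006 CPM (-0.93, SE 0.24, adjusted p = 0.0153). These groups did not overlap, but the call was lost without VM library 5, the lowest (adjusted p = 0.0915). It was also lower in VA, with 302 to 761 CPM and a median of 397 (-0.88, SE 0.22, adjusted p = 0.0099), where library 6, the one of another genotype, lay within the VL range. Between VA and VM the difference of Adcy1 was 0.05 log2 units (95% interval -0.39 to 0.48).

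Pde3a was lower in VM and VA than in VL. It had at most 0.744 CPM in the VM libraries and 0.322 CPM in the VA libraries, against 1.83, 63.7, 24.6, 23.5, 5.26 and 13.3 CPM in VL. Neither group overlapped with VL. Pooled over libraries the level was 115-fold lower in VM (95% counting interval 77.4 to 180, adjusted p = 0.00114) and 171-fold lower in VA (109 to 284, adjusted p = 3.5e-05). These counting intervals leave out the spread between libraries. VL library 2 held the most reads: without it the pooled folds were 66.8 in VM and 98.8 in VA, and without VM library 4 the VM fold was 257. Both calls held without each library in turn. Pde10a had 114 to 289 CPM in VA, median 160, and 63.7 to 123 CPM in VL, median 99.9. That was higher in VA (0.86, SE 0.23, adjusted p = 0.0222), in overlapping groups, and lost in 4 of 14 fits that left out 1 library (adjusted p up to 0.091). The edgeR call was also lost with amplification date as a term (0.75, adjusted p = 0.0935) and in a fit of these groups alone (0.85, adjusted p = 0.0836). Adcy8 was called higher in VM than in VL (3.31, adjusted p = 0.000121) and lower in VA than in VM (-2.94, adjusted p = 0.00127). Both calls rest on VM library 2: without it the differences were 0.03 (adjusted p = 1) and 0.34 (adjusted p = 0.943).

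**Figure D4:**
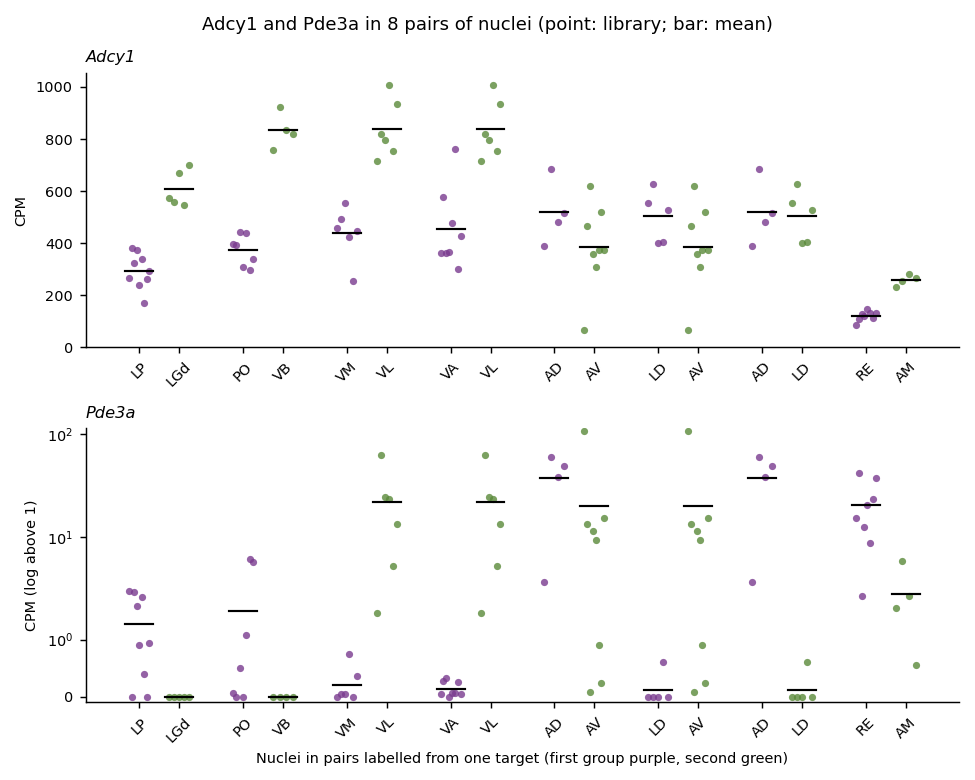
Adcy1 (upper panel, CPM) and Pde3a (lower panel, CPM on a scale that is logarithmic above 1) in every library of 8 same-target pairs, with the first nucleus in purple and the second in green; points are libraries and bars are means. Adcy1 lies lower in LP, PO, VM and VA than in LGd, VB and VL and lower in RE than in AM, while Pde3a is at 0 in all LGd and VB libraries and at most 0.744 CPM in VM, VA and LD.

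The difference between the pairs was itself tested as a difference of log2 fold changes, chosen after these values were seen. Visual minus motor (LP over LGd minus VM over VL) called 2 of 8 members, against 0.744% of all genes, and somatosensory minus motor 1 of 8, against 0.339%. Visual minus somatosensory called 0 of 8, against 0.2%; none of the 8 had an unadjusted p under 0.05 in edgeR, and no other tool was run. Pde3a differed in visual minus motor (14.26, SE 2.35, adjusted p = 2.5e-05) and in somatosensory minus motor (14.68, SE 2.59, adjusted p = 0.000252). The sizes depend on the prior count because LGd and VB are at 0. Adcy8 differed in visual minus motor (-3.73, adjusted p = 0.00254), but not without VM library 2 and the other 3 far libraries (-0.46, adjusted p = 1). For Adcy1 the differences were -0.12 in visual minus motor (95% interval -0.77 to 0.52), -0.22 in somatosensory minus motor (-0.91 to 0.46) and 0.10 in visual minus somatosensory (-0.57 to 0.78).

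Among retrosplenial-labelled nuclei 2 of 8 members were called for AD over AV, against 5.69% of all genes, 1 of 8 for LD over AV, against 5.5%, and 3 of 8 for AD over LD, against 6.73%. Adcy2 was higher in AD than in AV, whose 8 libraries ran between 2.83 and 41.7 CPM with a median of 11.4 (3.40, SE 1.06, adjusted p = 0.0356). AD and AV did not overlap, yet 8 of 12 fits that left out 1 library put the adjusted p above the threshold (up to 0.0774). Adcy2 was also higher in AD than in LD, whose libraries had 1.15, 0, 0, 9.86 and 1.65 CPM (6.27, SE 1.42, adjusted p = 0.00118), and these groups did not overlap. Pde3a had 3.68 to 59.98 CPM in AD against a single LD library above 0, at 0.607 CPM, and was 278-fold higher in AD when pooled (95% counting interval 141 to 645, adjusted p = 0.00027). It was 101-fold lower in LD than in AV when pooled (adjusted p = 0.00107), but 46.7-fold lower without AV library 1. Without LD library 4, which held all LD reads, it was at least 204-fold lower in LD than in AV and at least 562-fold higher in AD than in LD, against 3 counts over the LD group. LD libraries 4 and 5 and AV libraries 6 to 8 have listed ages of 441 to 447, and no AD library with a listed age does. The part of age in these pairs was not tested. In LD and AV the groups overlapped, since 2 of 8 AV libraries, at 0.0772 and 0.237 CPM, were within the LD range. In this pair Adcy2 did not pass in edgeR, whereas voom with the animal as a block (-4.51, adjusted p = 0.0179) and DESeq2 (-2.88, adjusted p = 0.0327) called it lower in LD. Pde10a was lower in AD, with 73.6 to 109 CPM, than in AV, with 124 to 282 CPM (-1.27, SE 0.27, adjusted p = 0.000552), in groups that did not overlap. It was lower in AD than in LD as well (-0.99, SE 0.29, adjusted p = 0.0189), which did not hold without AD 2, AD 3 or LD 3 (adjusted p up to 0.226). With amplification date as a term the calls of LD over AV for Pde3a (-4.05, adjusted p = 0.653) and of AD over LD for Pde3a (4.45, adjusted p = 0.429), Adcy2 (5.05, adjusted p = 0.306) and Pde10a (-0.54, adjusted p = 0.787) were lost, as was Adcy2 in AD over AV (3.38, adjusted p = 0.0904).

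Among cingulate-labelled nuclei 1 of 8 members was called for RE over AM, against 1.84% of all genes, and 1 of 8 for RE over IAD, against 1.33%, both Adcy1. Adcy1 had 86.5 to 148 CPM in RE, against 231, 256, 281 and 267 CPM in AM (-1.10, SE 0.24, adjusted p = 0.00215) and 280, 218 and 246 CPM in IAD (-1.04, SE 0.27, adjusted p = 0.0169). RE overlapped with neither. The RE over IAD call was lost without IAD 1 or IAD 3 (adjusted p up to 0.167). Adcy2 had 17.7 to 49.6 CPM in RE, median 29.4, against 3.77, 1.38, 0.328 and 0.349 CPM in AM. It was 21.3-fold higher in RE when pooled, 49.8-fold without AM library 1, and the groups did not overlap, but edgeR's adjusted p was 0.0784 (log2 fold change 4.47, SE 1.39). DESeq2 (adjusted p = 0.00107), voom with the animal as a block (0.00858) and an edgeR fit of these groups alone (0.000323) called it. RE and AM libraries 1 to 4 came from the same animals, and a fit of these libraries with the replicate as a block gave 5.34 (adjusted p = 0.015). Pde3a was 7.92-fold higher in RE than in AM when pooled, in overlapping groups. It did not pass in edgeR's fit of all groups (adjusted p = 0.432), whereas an edgeR fit of these groups alone called it (2.88, adjusted p = 0.0324). AM over IAD called 0 of 8, against 0% of all genes. In edgeR none of the 8 and 504 of 16527 genes had an unadjusted p under 0.05, and DESeq2, voom and a fit of these groups alone also called no member.

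The midline and caudal nuclei PVT, IMD, PF and SPA were set against the mean log2 level of the rostral intralaminar nuclei CL, PCN and CM, all AAV-labelled from the striatum. In edgeR's fit of all groups only Adcy1 was called, lower in PVT, IMD and SPA (3 of 32 member tests, 9.38%), against 2.11% of all gene tests. A fit of the compared groups alone also called Adcy8 lower in PVT (adjusted p = 0.0429) and SPA (0.0403), and Adcy2 (0.0127) and Adcy9 (0.0448) lower in SPA. PVT over the intralaminar mean called 1 of 8 members, against 2.18% of all genes, IMD 1 of 8, against 2.75%, and SPA 1 of 8, against 3.44%. Adcy1 averaged 129, 123 and 109 CPM in PVT, IMD and SPA, against 313 CPM over the means of CL, PCN and CM. The highest libraries of PVT, IMD and SPA had 199, 147 and 135 CPM and the lowest of the 12 intralaminar libraries 233 CPM, so none overlapped. The log2 fold changes were -1.51 in SPA (SE 0.26, adjusted p = 3.0e-05), -1.33 in IMD (SE 0.26, adjusted p = 0.000344) and -1.26 in PVT (SE 0.29, adjusted p = 0.00491), the last lost without PVT 1 or PVT 3 (adjusted p up to 0.108). PF over the intralaminar mean called 0 of 8, against 0.0605% of all genes. In edgeR 1 of the 8, Adcy1, and 873 of all genes had an unadjusted p under 0.05 there, and DESeq2, voom and a fit of these groups alone called no member. Adcy1 in PF had 215, 186, 193 and 232 CPM, below all intralaminar libraries by a narrow margin (-0.59, SE 0.25, adjusted p = 0.608).

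The tracer could be compared in CM, where AAV over DiI called 0 of 8 members, against 0.00605% of all genes. In edgeR none of the 8 and 1073 of all genes had an unadjusted p under 0.05, and DESeq2, voom and a fit of these groups alone called no member. Adcy1 had 275 ± 26.5 CPM in the 4 AAV and 280 ± 69.6 CPM in the 3 DiI libraries (-0.03, 95% interval -0.64 to 0.59). Adcy9 was the member whose groups did not overlap, with 5.49 to 22.7 CPM by AAV and 23.5 to 41.4 CPM by DiI (-1.15, 95% interval -2.95 to 0.64, adjusted p = 0.982). The intervals are wide, so differences of about 1 log2 unit in the less abundant members were not detectable at this number of libraries. The single AAV library of AM had 336 CPM of Adcy1, 156 of Adcy8, 0.623 of Adcy2, 69.8 of Adcy5, 191 of Pde4d and 322 of Pde10a. It had 2.67 CPM of Adcy9, against 16.4 to 44.4 CPM in the 4 DiI libraries of AM, and no read of Pde3a, which allows up to 0.267 CPM, against 0.548 to 5.82 CPM.

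Likeness between genes was measured over 22 points, the average log2 CPM of each nucleus, with a prior count of 2. Adcy2 and Pde3a had the highest correlation among the members (Pearson r = 0.73, Spearman rho = 0.77). Pde4d ran against Adcy2 (r = -0.71, rho = -0.74), Pde3a (r = -0.66, rho = -0.67) and Adcy5 (r = -0.62, rho = -0.64), and with Adcy1 (r = 0.60, rho = 0.55). Adcy1 and Pde3a had r = -0.56 (rho = -0.52). These describe 22 points that share target, tracer and amplification dates. Among 10565 candidate genes the one closest to Adcy1 was Adarb1 (r = 0.94), an RNA-editing enzyme, followed by Cplx1 (0.93), a complexin of the presynaptic release machinery, and Nceh1 (0.92). Closest to Adcy8 were Ptk2b (0.82), a calcium-activated tyrosine kinase, Rnf152 (0.79) and Esyt2 (0.77). Closest to Adcy2 were Cygb (0.90), Dgkk (0.86) and Ufsp1 (0.85). Among the 3 closest to Adcy5 were Prkar1b (0.91), a regulatory subunit of protein kinase A, and Tubb2a (0.88). Adcy9 was closest to Lin54 (0.92), Map4k2 (0.86) and Nt5c2 (0.85). Pde3a was closest to Gucy1a3 (0.86), a subunit of the soluble guanylyl cyclase, Fibin (0.85) and Tmem185b (0.83). Among the 3 closest to Pde4d were Fkbp1a (0.86) and Kcnn3 (0.86), and Pde10a was closest to Eps8 (0.84), Lgi1 (0.76) and Cdh8 (0.75).

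Of 96 other gene symbols listed for cyclic nucleotide signalling, a few of them synonyms of each other, 66 were in the table. In striatum-labelled over cortex-labelled nuclei 6 of these were called higher and 8 lower, with a median log2 fold change of 0.09, against 1324 higher and 1513 lower of all 15440 genes with a median of -0.08. Of the 3 other adenylyl cyclases none was called. Of the 11 other phosphodiesterases 1 was higher and 2 were lower. The calcium-stimulated Pde1b had 147 ± 41.5 CPM in striatum-labelled and 81.8 ± 30.3 CPM in cortex-labelled nuclei (0.85, adjusted p = 0.00961). Pde3b, the other cyclic GMP-inhibited form, had 7.83 ± 4.29 and 23.2 ± 14.8 CPM (-1.56, adjusted p = 0.00887), and the cyclic AMP-specific Pde7b had 115 ± 45.9 and 237 ± 90.3 CPM (-1.05, adjusted p = 0.00652).

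Of the 7 G protein alpha subunits 1 was lower: Gnal, which couples receptors to adenylyl cyclase in striatal and olfactory neurons, with 350 ± 48.3 CPM in striatum-labelled and 655 ± 175 CPM in cortex-labelled nuclei (-0.91, adjusted p = 0.000835). Of 9 protein kinase A subunits and inhibitors 3 were higher and none lower, among them the inhibitor Pkig (14.2 ± 9.30 and 5.30 ± 3.51 CPM, 1.42, adjusted p = 0.0175). Of 12 A-kinase anchoring proteins 3 were lower and none higher, and of 7 exchange factors and channels none was called. Of 10 genes of cyclic AMP-responsive transcription and phosphatase inhibition 2 were lower. Arpp21 had 120 ± 37.1 CPM in striatum-labelled and 238 ± 79.6 CPM in cortex-labelled nuclei (-0.99, adjusted p = 0.00269). The other, named after its values were seen, was Ppp1r1b, with 0.154 ± 0.259 and 2.91 ± 3.97 CPM in the same classes (-4.21, adjusted p = 0.0457), which is also 1 of the medium spiny neuron markers above. Of 7 guanylyl cyclases and cyclic GMP kinases 2 were higher, both subunits of soluble guanylyl cyclase. Another of its subunits, Gucy1a2, named after its values were seen, was not called. Gucy1a2 had 86.2 ± 32.8 CPM in striatum-labelled and 114 ± 23.6 CPM in cortex-labelled nuclei (-0.41, adjusted p = 0.137). Gucy1a3 had 109 ± 21.5 CPM in striatum-labelled and 12.2 ± 25.4 CPM in cortex-labelled nuclei (3.17, SE 0.89, adjusted p = 0.0149), and Gucy1b3 had 140 ± 19.4 and 93.7 ± 23.3 CPM (0.57, adjusted p = 0.0078).

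**Figure D5:**
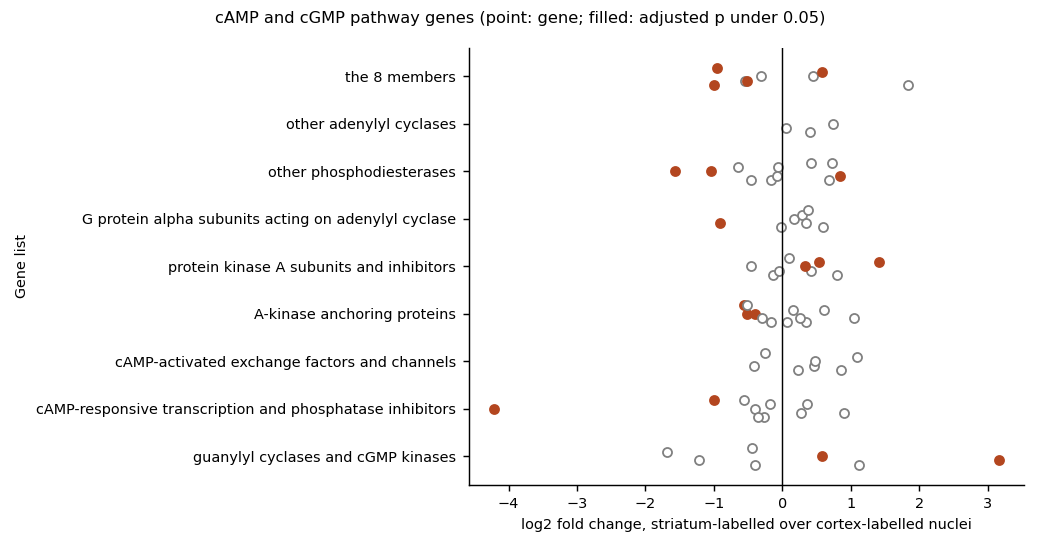
Log2 fold changes of striatum-labelled over cortex-labelled nuclei for the members and the 66 other genes of cyclic nucleotide signalling, by list; points are genes, and called genes are filled. The counts of called genes in each list are those in the text, with Gucy1a3 at 3.17 on the right and Ppp1r1b at -4.21 on the left.

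Over the 22 nuclei 47 of the 66 were called, against 55.1% of all genes tested. Those among the 6 with the largest F are given by their highest and lowest nucleus. Pde1a had 226 ± 76.7 CPM in RE (n = 8) and 0.0259 ± 0.0578 CPM in LD (n = 5). Pde4b had 377 ± 136 CPM in MD and 22.8 ± 13.8 CPM in VB, and Pde7b had 403 ± 52.8 CPM in LGd and 55.1 ± 23.2 CPM in SPA. Gnal had 1002 ± 164 CPM in LD and 250 ± 49.2 CPM in SPA, and Gucy1a3 had 120 ± 19.4 CPM in IMD and no read in the 5 LGd libraries, where Pde3a had none either.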

How the data were processed

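Hand-sorted, retrogradely labelled neurons were amplified with the Ovation RNA-seq v2 kit and sequenced on an Illumina HiSeq, per the labels' protocols. The submitters' processing notes name cutadapt 1.16, STAR 2.5.3a, featureCounts 1.52 and the build mm10. The deposited values are raw read counts per gene, without molecular identifiers, so amplification can spread the values of small pools.

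Counts were tested with edgeR 4.0.16 (quasi-likelihood, TMM factors, filterByExpr by group, 24 group coefficients in 1 fit, Benjamini-Hochberg over all tested genes, threshold 0.05), in R 4.3.3. CM was taken from its AAV and AM from its DiI libraries. Class differences used counts summed per nucleus. CPM use TMM-scaled totals. Standard errors and 95% intervals are approximations from the log2 fold change and its F. Pooled folds use summed counts, with exact binomial counting intervals and a floor of 3 counts per group. The counting intervals treat reads as independent and leave out the spread between libraries. Pooled folds without single libraries and the Adcy8 level per kilobase without 4 libraries were added after seeing the data. Leave-out, replicate block and date fits keep the negative binomial dispersions of the full fit. Alternatives were RLE size factors, no filter, DESeq2 1.42.0, limma 3.58.1 voom with the animal as a random block, amplification date, a replicate block, fits restricted to the nuclei of a comparison, and leaving out libraries or nuclei. The fit was also tested on simulated counts with known changes.

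Same-numbered RE and AM libraries 1 to 4 come from the same animals by the deposited sample sheet (correlations of their deviations -0.043 to 0.0678 over 4 pairs). Of the other 46 same-numbered pairs 7 come from the same animal (in VM, VA and VL, and in AD and AV), too few to treat these numbers as pairs. Libraries of other groups or numbers can also share an animal, since the sheet lists 85 animals for 120 libraries. The edgeR fit of all groups did not model this sharing. Voom with the animal as a random block did, with a consensus correlation of 0.0345 between libraries of the same animal. The members, gene lists and comparisons were chosen with earlier results of these data known. Named were all members, up to 4 called list genes per direction of at least 10 CPM with the largest change, the 6 list genes with the largest F and the 3 genes most like each member. Some of the genes that these rules and the marker lists name are not reported here. Genes had positions from the GENCODE vM21 annotation (GRCm38), and gene levels per length use its merged exons.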

Additional observations from a re-analysis of the deposited data

Results flagged for a closer look

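In 20 of 160 sets of 1 member in 1 group of 4 to 10 libraries, a single library lay far from the others. The rule is meant to flag about 1 in 20 sets by chance, but that share was not checked for levels of small amplified pools. Sets at 0 throughout cannot be flagged, and the members of a library are not independent. The count is therefore not read against chance. Adcy8 had 5 of them: 3741 CPM in VM library 2 (others 47.8 to 104), 855 CPM in PCN library 4 (others 66.5 to 161), 637 CPM in PO library 5 (others 38.9 to 165), 541 CPM in AV library 8 (others 27.1 to 93.4) and 171 CPM in VA library 3 (others 35.4 to 98.7). Adcy5 had 646 CPM in MD library 3 (others 23.8 to 95.9) and 53.8 CPM in PCN library 4 (others 97.9 to 106). Adcy9 had 149 CPM in AV library 1 (others 14.8 to 37.0), 105 CPM in VPMpc library 4 (others 0.273 to 16.6) and 62.0 CPM in VA library 3 (others 4.63 to 30.8).

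Pde3a had 109 CPM in AV library 1 (others 0.0772 to 15.3), 63.7 CPM in VL library 2 (others 1.83 to 24.6) and 0.607 CPM in LD library 4, beside 4 libraries at 0. Adcy2 had 17.6 CPM in VPMpc library 1 (others up to 3.21) and 9.86 CPM in LD library 4 (others up to 1.65). Pde4d had 237 CPM in VA library 4 (others 49.8 to 124), 193 CPM in LP library 2 (others 80.2 to 131) and 56.7 CPM in SPA library 3 (others 91.5 to 93.6). Pde10a had 618 CPM in MD library 2 (others 159 to 213) and 286 CPM in LP library 2 (others 152 to 213). Of these libraries AV 1, VA 3, LD 4, PCN 4 and LP 2 were far from their group in 2 members each. Among all flagged libraries only AV 8, VPMpc 1 and LD 4 have listed ages of 441 to 447, and the part of age was not tested.

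Differences between pairs of nuclei were past the threshold in 3 tests of the difference of log2 fold changes. Pde3a had 14.26 in visual minus motor and 14.68 in somatosensory minus motor, sizes that depend on the prior count because LGd and VB are at 0. Adcy8 had -3.73 in visual minus motor, which rests on VM library 2.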

How the results depend on the processing

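The count of called members kept within 1.5 times its value under RLE factors and without the filter in every comparison. For striatum-labelled over cortex-labelled nuclei, called in 4 of 8 members, a fit of all libraries called 7. The dates that hold both classes, with PVT, IMD and CM against VA, VL and VM alone, called 1. Leaving out each nucleus gave 1 to 4 (1 without PVT or IMD, 2 without CM or SPA). Over the same-target pairs amplification date as a term left 10 of the 18 calls among the 72 tests it can estimate, and the cause was not tested. A fit of the compared groups alone called 7 in the midline and caudal contrasts, against 3. RE over AM called 2 members in a fit of libraries 1 to 4 alone, both with the replicate block and without it, against 1. Leaving out single libraries gave 6 to 8 members over the 22 nuclei, 16 to 20 calls over the pairs, 2 to 3 over the midline and caudal contrasts, 38 to 42 over each nucleus against the other 21, and 0 for the tracer. Without VM 2, PCN 4, AV 8 and PO 5, an alternative chosen after seeing the data, these were 7, 16 and 3 in the first 3, and 2 of 3 for the differences between pairs. Reversed values were Adcy8 in VA over VM without VM 2 or without the 4 libraries (0.34 in both), Adcy8 in VM over the other 21 nuclei without VM 2 (-0.49) and Adcy5 in MD over the other 21 without MD 3 (-0.87). Single omissions gave log2 fold changes of -3.18 to 0.34, -0.49 to 3.03 and -0.87 to 1.08 in these 3.

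With the replicate number as a block 8 members were called over the 22 nuclei, 18 calls remained of 19 over the pairs, 3 in the midline and caudal contrasts, 34 of 41 for each nucleus against the others, and 0 for the tracer. Deviations of same-numbered libraries had correlations of -0.0819 to 0.0748 over 50 pairs, so the numbers are not treated as pairs outside RE and AM. The call of Adcy2 in AD over AV was lost with this block (3.17, adjusted p = 0.0795). Over all genes the counts moved beyond 1.5 times in the class comparison (2837 called; 5395 with all libraries, 874 within dates), the pairs (5187; 11407 with DESeq2; 2810 with date against 4968 in the same tests) and the midline and caudal contrasts (1394; 3958 alone, 2796 with voom, 3138 with DESeq2). The date term could not be fitted for the F test over the 22 nuclei, RE over IAD, AM over IAD, PVT, IMD, SPA and the tracer, and it and DESeq2 were not run for each nucleus against the others. Depth limits levels under about 0.05 CPM.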
